A study of Mus musculus with 8 samples.

Results

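The genes described here encode the AP-1 transcription factors of the Fos and Jun families, the related factor Atf3, the zinc finger factor Egr1 and the survival factor Ier3. These 10 early response genes were chosen by name out of 55414 gene IDs in the count table, and they comprise *Fos*, *Fosb*, *Fosl1*, *Fosl2*, *Jun*, *Junb*, *Jund*, *Atf3*, *Egr1* and *Ier3*. RNA was measured by RNA-seq in Paneth cells, the antimicrobial secretory cells of the small intestinal crypt, to find how tumor necrosis factor (TNF, an inflammatory cytokine) changes their gene expression. Wild-type mice (C57BL/6J, as the study describes its mice) received either phosphate-buffered saline (PBS, the control) or TNF by injection. After 3 hours their small intestines were taken and Paneth cells were purified by cell sorting. Each group held 4 libraries, which the design text describes as biological replicates, and all 8 came from the same genotype, tissue and time. The sources used here do not give the TNF dose, the age of the mice or the sex behind each library, and the study says only that its datasets hold animals of both sexes.

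AP-1 is a dimer of basic leucine zipper (bZIP) proteins. A Fos family protein must pair with a Jun family protein, whereas Jun proteins also pair with each other, and Atf3 can join either Jun proteins or its own kind. Early response genes are transcribed within minutes of a stimulus without new protein synthesis, in many cases through MAP kinases and serum response factor (SRF), and many of their RNAs are short-lived. In TNF-stimulated cells AP-1 acts beside NF-kB.

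Upstream sequences are shown first for a pair of genes that rose strongly, for the gene that was not called and for the gene that fell. They cover 250 bases before the canonical start of *Junb* (GRCm39, chr8:85705348-85705597, minus strand), *Ier3* (chr17:36132318-36132567, plus strand), *Fos* (chr12:85520408-85520657, plus strand) and *Fosb* (chr7:19043977-19044226, minus strand), written 5′ to 3′. The bases came from the GRCm39 genome assembly and the starts from GENCODE M39. *Junb* rose 10.2-fold and *Ier3* 15.0-fold by their means, *Fos* did not pass the test with all libraries, and *Fosb* fell. Capitals mark each match to a motif searched on both strands.
Junb: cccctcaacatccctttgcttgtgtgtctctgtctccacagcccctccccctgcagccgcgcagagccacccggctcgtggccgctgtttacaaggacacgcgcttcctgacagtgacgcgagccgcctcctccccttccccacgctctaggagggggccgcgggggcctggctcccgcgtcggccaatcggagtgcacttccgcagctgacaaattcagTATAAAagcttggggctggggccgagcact
Ier3: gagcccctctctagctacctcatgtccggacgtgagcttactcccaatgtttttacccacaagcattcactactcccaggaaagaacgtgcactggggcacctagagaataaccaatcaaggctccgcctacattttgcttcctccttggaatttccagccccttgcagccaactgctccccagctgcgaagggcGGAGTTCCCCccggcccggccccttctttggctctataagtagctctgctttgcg
Fos: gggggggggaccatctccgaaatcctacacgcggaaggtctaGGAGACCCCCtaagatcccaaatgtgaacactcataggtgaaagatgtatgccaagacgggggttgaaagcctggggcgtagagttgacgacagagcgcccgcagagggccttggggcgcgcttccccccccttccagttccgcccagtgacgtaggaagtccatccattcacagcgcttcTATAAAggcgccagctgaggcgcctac
Fosb: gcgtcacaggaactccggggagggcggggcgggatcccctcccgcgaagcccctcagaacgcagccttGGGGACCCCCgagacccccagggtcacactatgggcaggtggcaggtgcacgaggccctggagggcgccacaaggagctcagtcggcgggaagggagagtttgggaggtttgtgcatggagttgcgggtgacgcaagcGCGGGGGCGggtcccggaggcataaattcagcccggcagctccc

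Upstream windows were searched for 9 of the 10 genes, and that of *Egr1* was not analysed here. Matches to a kappa-B site, the recognition motif of NF-kB, were found for 3 of the 9 (*Fos*, *Fosb* and *Ier3*), and 7.62% of all 21770 promoter windows held one. The match of *Ier3* lay at -55 to -46 from the start, that of *Fos* at -208 to -199 and that of *Fosb* at -182 to -173, so a gene that rose, one that was not called and one that fell each held a match. The letters TATAAA occurred in 3 of 9 windows (*Fos*, *Fosl1* and *Junb*) and in 11.9% of all windows. GCGNGGGCG, the Egr motif, occurred in the windows of *Fosb* (1 match) and *Jund* (3 matches) and in 4.48% of all. The cyclic AMP response element TGACGTCA occurred in the *Jund* window alone and in 1.69% of all windows. No member window held the AP-1 element TGANTCA (6.17% of all) or a CArG box, the SRF motif (1.4% of all). A match is a stretch of letters only, and its absence refers to this window only.

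The libraries held 23824717 to 32576077 counts with 16712 to 19135 genes detected. Levels below are normalized CPM, which are counts scaled to a common library total by library size and TMM factors (trimmed mean of M values). Markers of Paneth cells took 43.0% to 48.9% of the counts in PBS libraries and 43.3% to 55.3% in TNF libraries, and 0 of the 7 were called (edgeR, 0 at an unadjusted p under 0.05 and 0 called by DESeq2). In normalized CPM their sum was 316812 to 465816 in PBS and 391463 to 1233680 in TNF, highest in TNF replicate 4. TNF replicate 4 stood apart on the second principal component (score 63.9, against -29.1 to 4.22 in the others), with a TMM factor of 0.448 against 0.995 to 1.36. PBS replicate 4 stood apart on the third (score -36.3, against -8.11 to 18.7). Levels of the nuclear RNAs *Malat1* and *Neat1* also set these libraries apart. *Malat1* was 38.1 normalized CPM in PBS replicate 4 and 32.9 in TNF replicate 4 against 5.02 to 10.3 in the other 6, and *Neat1* was 27.7 and 19.3 against 2.11 to 11.0. *Xist*, the RNA of the inactive X chromosome of female cells, was 0.343 in TNF replicate 4, 162 in PBS replicate 4 and 24.4 to 51.9 in the others. These 3 genes were chosen after their values were seen.

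All 10 genes passed the filter on low counts, and 9 were called between TNF and PBS at an adjusted p under 0.05 (edgeR quasi-likelihood test, Benjamini-Hochberg adjustment over 13368 genes). The background is high, since 43.0% of all tested genes were called. Among the members 8 rose, against 23.4% of all genes, and 1 fell, against 19.6%. With scaling by library size alone 6 members rose and 1 fell, against 5.66% of all genes called higher and 18.1% called lower. For 8 of the 10 all 4 TNF values lay above or below all 4 PBS values in normalized CPM, against 42.1% of all genes, and the exceptions were *Fos* and *Jun*. In CPM by library size alone *Jund* and *Egr1* overlapped as well. There *Jund* was 44.5 in TNF replicate 4 and 78.6 to 100 in PBS. *Egr1* was 35.4 in TNF replicate 4 and 51.9 in PBS replicate 4. The median log2 fold change was 2.37 over the members and 0.03 over all tested genes. In bulk samples, fewer cells of a type and less RNA per cell cannot be told apart.

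**Figure D1:**
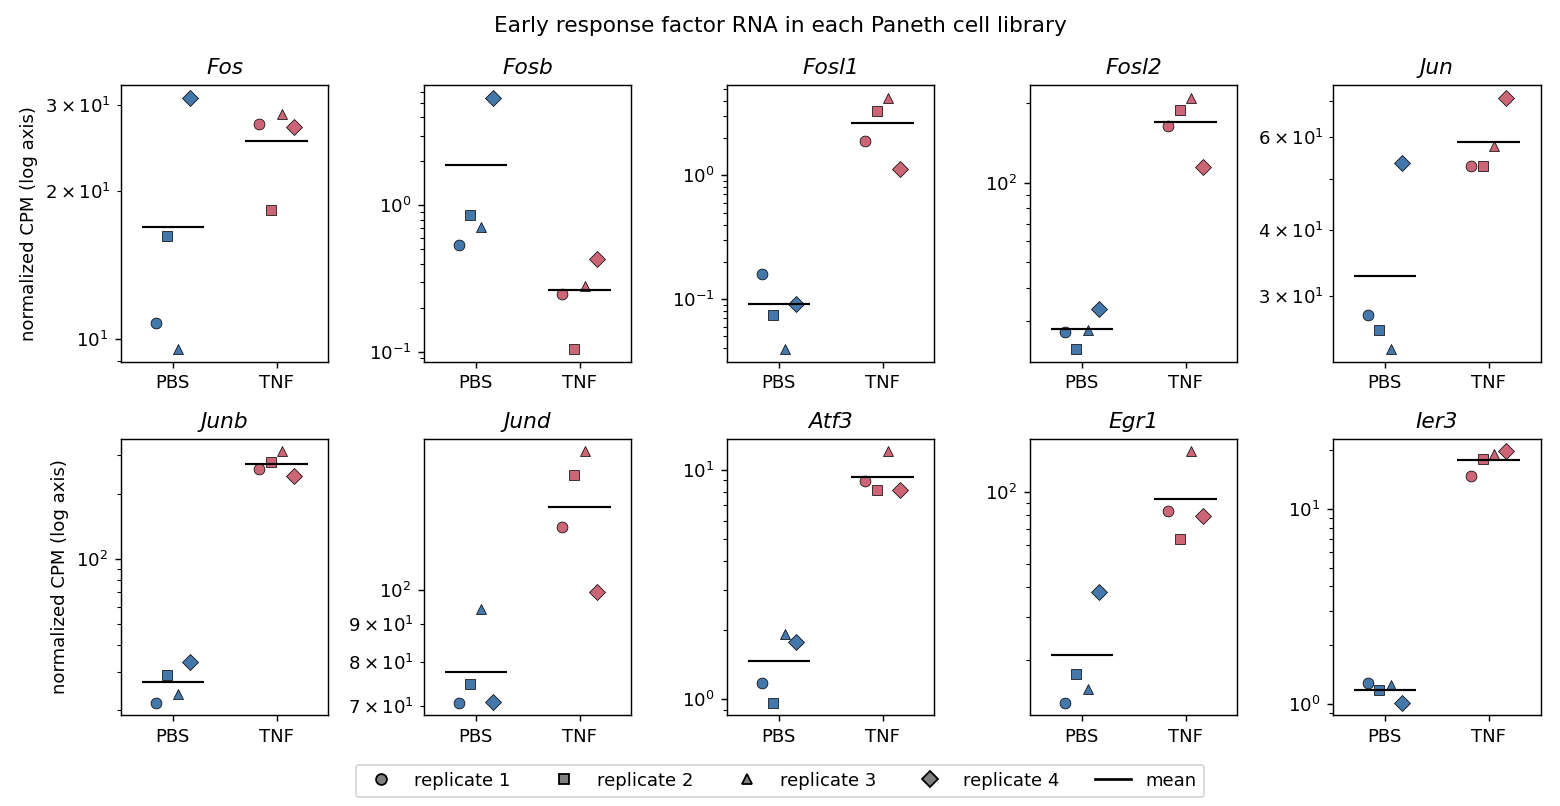
Normalized CPM (log axis, its own scale for each gene) of the 10 genes in the 4 PBS (blue) and 4 TNF (red) libraries, with 1 symbol shape per replicate number and a line at the group mean. TNF values lie clear of PBS values for all genes but *Fos* and *Jun*, and the PBS replicate 4 diamond stands above the other PBS points for *Fos*, *Fosb*, *Jun* and *Egr1*.

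Among the Jun family *Junb* had the largest log2 fold change. It encodes the AP-1 subunit JunB and lies on chromosome 8 (85701113-85705359, ENSMUSG00000052837). Its levels in PBS replicates 1 to 4 were 21.6, 28.9, 23.7 and 33.2 normalized CPM, and in TNF replicates 1 to 4 they were 259, 280.2, 314 and 241. Every TNF library lay far above every PBS library. The means were 26.8 ± 5.24 and 274 ± 31.4 (SD, n = 4 each), and the log2 fold change was 3.35 (SE 0.17, adjusted p = 3.26e-07, edgeR).

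*Jun* (chromosome 4, 94937271-94940459, ENSMUSG00000052684) encodes c-Jun, the main target of JNK among these proteins. PBS levels were 27.6, 25.9, 23.8 and 53.6 normalized CPM and TNF levels were 52.8, 52.9, 57.8 and 71.2. PBS replicate 4 exceeded TNF replicates 1 and 2, so the groups overlapped. The log2 fold change was 0.84 (SE 0.24, adjusted p = 0.0173, edgeR). Without PBS replicate 4 it was 1.14 (adjusted p = 0.000109), while without PBS replicate 1, 2 or 3 it was 0.73, 0.74 and 0.71 with adjusted p of 0.0525, 0.0527 and 0.0515, so that the call was lost. Over 18 alternatives its adjusted p ran from 5.82e-07 to 0.505, the highest with scaling by library size alone (log2 fold change 0.35, where the median of all genes was -0.38).

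*Jund* (chromosome 8, 71151599-71153265, ENSMUSG00000071076) encodes JunD, a subunit known for a steady presence in resting cells. PBS levels were 70.6, 74.8, 94.2 and 70.7 normalized CPM, and TNF levels were 121, 142, 153 and 99.3. Groups did not overlap on this scale, with TNF replicate 4 closest to the PBS range. Its log2 fold change of 0.73 (SE 0.16, adjusted p = 0.00385, edgeR) was close to that of *Jun*. With scaling by library size alone it was 0.41 and the call was lost (adjusted p = 0.409, against 7.51e-05 at the lowest over the alternatives). The antisense lncRNA *Gm11175* shares 877 exon bases with *Jund* and gave 41.3 to 53.9 normalized CPM in PBS and 56.1 to 89.1 in TNF. It changed by 0.71 on the log2 scale (SE 0.15, adjusted p = 0.00386, edgeR), and since the strand setting of the counts is unstated in the sources at hand, reads of the pair cannot be told apart.

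In the Fos family *Fosl1* and *Fosl2* rose, *Fosb* fell and *Fos* was not called. *Fosl1* (chromosome 19, 5497575-5505974, ENSMUSG00000024912) encodes Fra-1. It had 6, 2, 1 and 4 raw counts in the PBS libraries and 53, 95, 121 and 13 in the TNF libraries. In normalized CPM these were 0.161, 0.0744, 0.0394 and 0.0905 in PBS and 1.88, 3.29, 4.25 and 1.12 in TNF, without overlap. The log2 fold change of 4.75 (SE 0.51, adjusted p = 3.79e-05, edgeR) was the largest of the 10 but rested on these few PBS counts.

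*Fosl2* (chromosome 5, 32292707-32315186, ENSMUSG00000029135) encodes Fra-2. PBS levels were 27.4, 23.5, 27.7 and 33.4 normalized CPM, and TNF levels were 163, 188, 209.6 and 114. Every TNF library stood well above every PBS library. The means of 28.0 ± 4.08 and 169 ± 41.0 (SD, n = 4 each) gave a change of 2.59 on the log2 scale (SE 0.20, adjusted p = 3.80e-06, edgeR).

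*Fos* (chromosome 12, 85520658-85524047, ENSMUSG00000021250) encodes c-Fos, the founding member of the family. PBS levels were 10.8, 16.2, 9.53 and 31.0 normalized CPM and TNF levels were 27.4, 18.3, 28.7 and 27.0. PBS replicate 4 was above all 4 TNF libraries, and the other 3 PBS libraries were below all of them. With all libraries *Fos* was not called (log2 fold change 0.58, SE 0.33, adjusted p = 0.184, edgeR). Without PBS replicate 4 the log2 fold change was 1.02 (adjusted p = 0.00421) and *Fos* was called, beside 41.3% of all tested genes in that fit. Over 18 alternatives its adjusted p ran from 0.000722 to 0.844.

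*Fosb* (chromosome 7, 19036621-19043976, ENSMUSG00000003545) encodes FosB. It was the one member that fell. PBS libraries held 20, 23, 18 and 242 raw counts and TNF libraries 7, 3, 8 and 5. Normalized CPM were 0.536, 0.855, 0.709 and 5.47 in PBS and 0.248, 0.104, 0.281 and 0.429 in TNF, so the groups were close but did not overlap. The log2 fold change was -2.98 (SE 0.85, adjusted p = 0.0159, edgeR). Without PBS replicate 4 it was -1.52 (adjusted p = 0.0193), a smaller fall but still called. Under limma-voom with all libraries it was -2.44 with an adjusted p of 0.0600, and the call was lost, the highest of a range that began at 0.00019.

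*Atf3* (chromosome 1, 190902493-190950241, ENSMUSG00000026628) encodes a stress-induced bZIP factor. PBS levels were 1.18, 0.967, 1.93 and 1.79 normalized CPM and TNF levels were 8.98, 8.17, 12.1 and 8.16. The groups lay far apart, at means of 1.47 ± 0.466 and 9.34 ± 1.86 (SD, n = 4 each). The log2 fold change was 2.67 (SE 0.24, adjusted p = 1.03e-05, edgeR).

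*Egr1* (chromosome 18, 34992876-34998049, ENSMUSG00000038418) encodes a zinc finger factor induced by growth factors and stress through SRF. PBS levels were 13.2, 17.4, 15.1 and 38.3 normalized CPM and TNF levels were 83.3, 63.9, 148 and 79.0. PBS replicate 4 was again the highest PBS library, yet below every TNF library on this scale. The log2 fold change was 2.15 (SE 0.36, adjusted p = 0.000811, edgeR), and 2.59 without PBS replicate 4 (adjusted p = 0.000112).

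*Ier3* (chromosome 17, 36132568-36133815, ENSMUSG00000003541) encodes a regulator of cell survival and a known NF-kB target. PBS levels were 1.29, 1.19, 1.26 and 1.02 normalized CPM, and TNF levels were 14.6, 18.03, 18.9 and 19.7. Both groups were tight and far apart, with means of 1.19 ± 0.121 and 17.8 ± 2.23 (SD, n = 4 each). It had the lowest adjusted p of the 10 (log2 fold change 3.91, SE 0.16, adjusted p = 1.03e-07, edgeR).

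**Figure D2:**
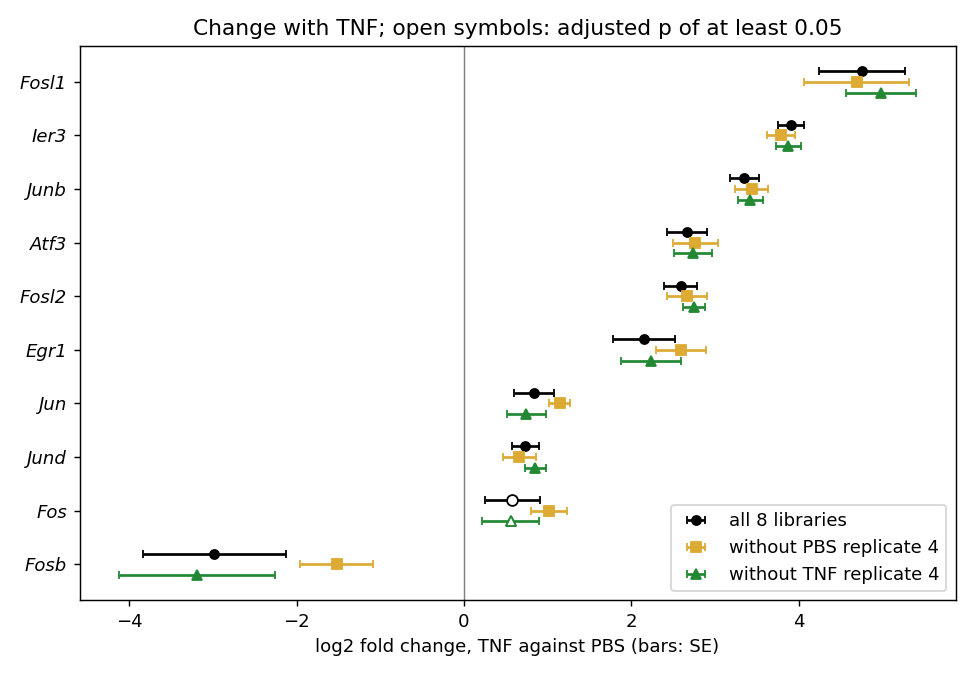
Log2 fold change of TNF against PBS (horizontal axis, with bars for the SE) from fits with all 8 libraries (black circles), without PBS replicate 4 (yellow squares) and without TNF replicate 4 (green triangles), where open symbols mark an adjusted p of at least 0.05. *Fos* is called only without PBS replicate 4 among these 3 fits, and *Fosb* moves from -2.98 to -1.52.

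PBS replicate 4 was the highest PBS library for 6 of the 10 members, and 37% of all tested genes were highest there, as were 70.4% of the other early response genes, 59.3% of the upstream kinases and SRF factors and 56% of the other bZIP factors tested, but 30.8% of the AP-1 target genes and 0 of 9 heat shock genes. On log2(CPM + 1), 4 of the 10 (*Fos*, *Fosb*, *Jun* and *Egr1*) stood at least 2-fold above the mean of the other PBS libraries, against 0.838% of all genes. The ratios of normalized CPM were 2.55 for *Fos*, 7.82 for *Fosb*, 2.08 for *Jun* and 2.51 for *Egr1*, and between 0.817 and 1.34 for the other 6. The same 2-fold mark was passed by 0 of 27 other early response genes and 1 of 25 other bZIP factors tested (*Bach2*, named after its values were seen). Without PBS replicate 4 all 10 members were called. With TNF replicate 4 left out instead, *Fos* was again not called (log2 fold change 0.56, adjusted p = 0.192, edgeR), beside 50.4% of all genes called. With both left out all 10 were called, beside 56.9% of all genes, at log2 fold changes of 1.02 for *Fos*, 1.08 for *Jun*, -1.70 for *Fosb* and 2.69 for *Egr1*. The part of the nuclear RNA levels in these values was not tested.

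Levels were then compared per kilobase of union exon length. In PBS *Jund* led at 46.6 ± 6.76 normalized CPM per kb (SD, n = 4). Next came *Junb* at 11.3 ± 2.20, *Jun* at 10.3 ± 4.39, *Fos* at 7.16 ± 4.18, *Egr1* at 4.67 ± 2.59 and *Fosl2* at 2.696 ± 0.392, and each of these neighbours overlapped with the next. *Ier3* (1.04 ± 0.106), *Atf3* (0.601 ± 0.191), *Fosb* (0.303 ± 0.383) and *Fosl1* (0.0449 ± 0.0251) were lowest, and here the ranges of *Atf3* and *Fosb* overlapped. In TNF *Junb* led at 114.9 ± 13.2 normalized CPM per kb, above *Jund* at 77.4 ± 14.3. Below them *Egr1* (20.8 ± 8.28), *Jun* (18.4 ± 2.71), *Fosl2* (16.2 ± 3.94) and *Ier3* (15.6 ± 1.96) overlapped, followed by *Fos* (10.7 ± 2.02), *Atf3* (3.83 ± 0.761), *Fosl1* (1.29 ± 0.690) and *Fosb* (0.0425 ± 0.0214). The range of *Fos* (7.75 to 12.2) also overlapped that of *Fosl2* (11.0 to 20.2).

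The make-up of each family changed with these levels. Summed over the Fos family, PBS libraries held 7.38, 9.31, 6.84 and 17.3 normalized CPM per kb and TNF libraries 28.3, 27.5, 34.5 and 23.1. *Fos* made up 67.8% ± 8.44 of that sum in PBS and 38.5% ± 9.06 in TNF, and *Fosl2* made up 29.4% ± 9.56 and 56.9% ± 7.51 (SD, n = 4 each). The ranges did not overlap, at 59.1% to 76.1% against 28.2% to 49.6% for *Fos* and at 18.6% to 39.0% against 47.7% to 65.9% for *Fosl2*. Summed over the Jun family, PBS libraries held 60.1, 65.1, 73.9 and 73.2 and TNF libraries 198, 219.6, 242 and 183. *Jund* made up 68.5% ± 7.71 of the sum in PBS and 36.5% ± 2.81 in TNF, *Junb* 16.6% ± 2.73 and 54.6% ± 0.740, and *Jun* 15.0% ± 5.62 and 8.90% ± 2.23. The ranges of *Jun* overlapped, at 10.1% to 23.0% in PBS against 7.49% to 12.2% in TNF. With the longest transcript as the length, *Junb* made up 20.7% in PBS and 61.3% in TNF. These shares were not tested and depend on the lengths used.

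**Figure D3:**
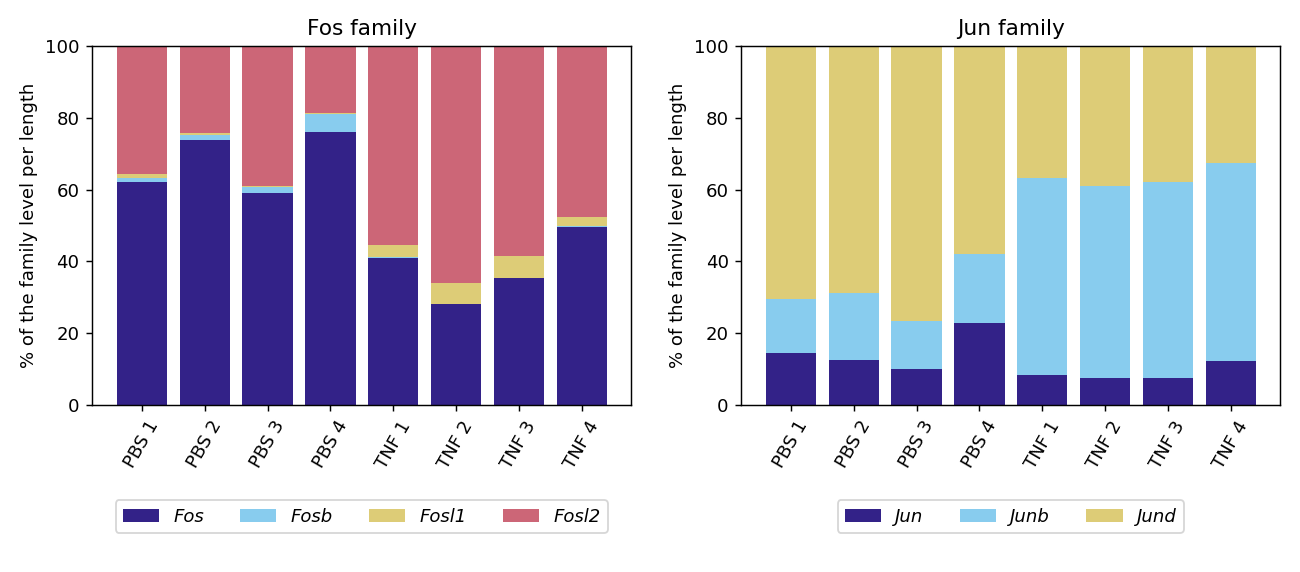
Percentage of the summed level per length (vertical axis) held by each Fos family gene (left) and each Jun family gene (right) in the 8 libraries. *Fos* holds 59.1% to 76.1% of its family in PBS and 28.2% to 49.6% in TNF, and *Junb* holds 13.4% to 19.1% of its family in PBS and 53.6% to 55.3% in TNF.

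For each called member with a mean of at least 5 normalized CPM, the tested gene whose profile over the 8 libraries lay closest was found among 8489 genes. The measure was the root-mean-square distance of log2 normalized CPM after each gene's own PBS mean was subtracted, so it leaves out how abundant a gene is. The closest to *Fosl2* was *Il6st* (distance 0.0843), that to *Junb* was *Nfkb2* (0.152), that to *Ier3* was *Smim33* (0.132) and that to *Jun* was *Plxnb1* (0.141). The closest to *Jund* was its antisense partner *Gm11175* (0.0517), that to *Atf3* was *Helz2* (0.167) and that to *Egr1* was *Rhbdl3* (0.3203). Their log2 fold changes were 2.55 for *Il6st*, 3.27 for *Nfkb2*, 3.44 for *Smim33*, 0.82 for *Plxnb1*, 2.21 for *Helz2* and 2.49 for *Rhbdl3*. The distances describe likeness of change from the PBS mean over these libraries only.

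Other genes of the pathway were read from lists. Of the other bZIP factors 25 of 30 were tested, and 7 rose, 3 fell and 15 were not called, with a median log2 fold change of 0.07. These 10 calls among 25 are near the 43.0% called over all genes. *Crem*, a cyclic AMP responsive factor, rose from 4.10 ± 0.385 to 65.0 ± 24.1 normalized CPM (SD, n = 4 each; log2 fold change 3.98, SE 0.25, adjusted p = 8.83e-07, edgeR). *Maff* and *Mafk*, small Maf proteins, rose by 1.44 (SE 0.13) and 1.31 (SE 0.18), and *Creb1* rose by 0.75 (SE 0.13) on the log2 scale. With scaling by library size alone *Mafk* (0.97, adjusted p = 0.0804, edgeR) and *Creb1* (0.31, adjusted p = 0.484) lost their calls. The 3 that fell, named after their values were seen, were *Atf6b* (-0.69), *Creb3l1* (-0.59) and *Ddit3* (-0.68).

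Of 34 other early response genes 27 were tested, and 17 rose (23.4% of all genes did), 3 fell (19.6% of all genes) and 7 were not called, with a median log2 fold change of 1.11. *Zfp36*, which destabilizes short-lived RNAs, rose from 19.6 ± 3.97 to 253 ± 43.1 normalized CPM (log2 fold change 3.69, SE 0.19, adjusted p = 3.29e-07, edgeR). *Gem*, a small GTPase, rose by 4.12 (SE 0.33), *Nab1*, a corepressor of Egr factors, by 1.79 (SE 0.15) and *Mcl1*, a survival protein, by 1.37 (SE 0.12). The 3 that fell, also named after their values were seen, were the nuclear receptor *Nr4a1* (-2.28, SE 0.24), *Klf4* (-1.04, SE 0.16) and *Ccn1* (-1.63, SE 0.39).

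Upstream kinases and SRF factors moved both ways. Of 28 genes 27 were tested, and 11 rose, 5 fell and 11 were not called, with a median log2 fold change of 0.23, beside 23.4% of all genes called higher and 19.6% called lower. *Mapk11*, a p38 kinase, rose from 0.189 ± 0.126 to 2.74 ± 0.579 normalized CPM (log2 fold change 3.75, SE 0.40, adjusted p = 3.22e-05, edgeR), *Map2k3*, an activator of p38, rose by 1.75 (SE 0.16) and *Mapkapk3*, a kinase downstream of p38, rose by 2.11 (SE 0.11). *Rps6ka5*, the kinase MSK1, fell from 5.53 ± 1.18 to 0.742 ± 0.144 (log2 fold change -2.88, SE 0.23, adjusted p = 5.03e-06, edgeR). The other 4 that fell, named after their values were seen, were *Map2k6* (-1.58), another activator of p38, *Mapk14* (-0.74), the p38 alpha kinase, *Mrtfa* (-0.35) and *Mapk3* (-0.33). The p38 kinases *Mapk12* (-0.10) and *Mapk13* (-0.00055) were not called.

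Of 25 AP-1 target genes 13 were tested, of which 10 rose (23.4% of all genes did) and 3 were not called, with a median log2 fold change of 1.47. *Hbegf*, an epidermal growth factor receptor ligand, rose from 0.340 ± 0.107 to 5.26 ± 0.688 normalized CPM (log2 fold change 3.97, SE 0.26, adjusted p = 1.42e-06, edgeR). *Tgfb1*, a growth factor, rose by 1.73 (SE 0.14) and *Cd44*, a hyaluronan receptor, by 1.47 (SE 0.13) on the log2 scale. The remaining 12 genes did not pass the filter on low counts. Heat shock genes belong to a common stress response. Of 11, 9 were tested and 3 rose, against 23.4% of all genes called higher and 43.0% called in all. Their median log2 fold change was 0.36, and those that rose were *Dnaja1* (0.76, SE 0.11), *Dnajb1* (0.50, SE 0.13) and *Hsp90aa1* (0.44, SE 0.14).

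**Figure D4:**
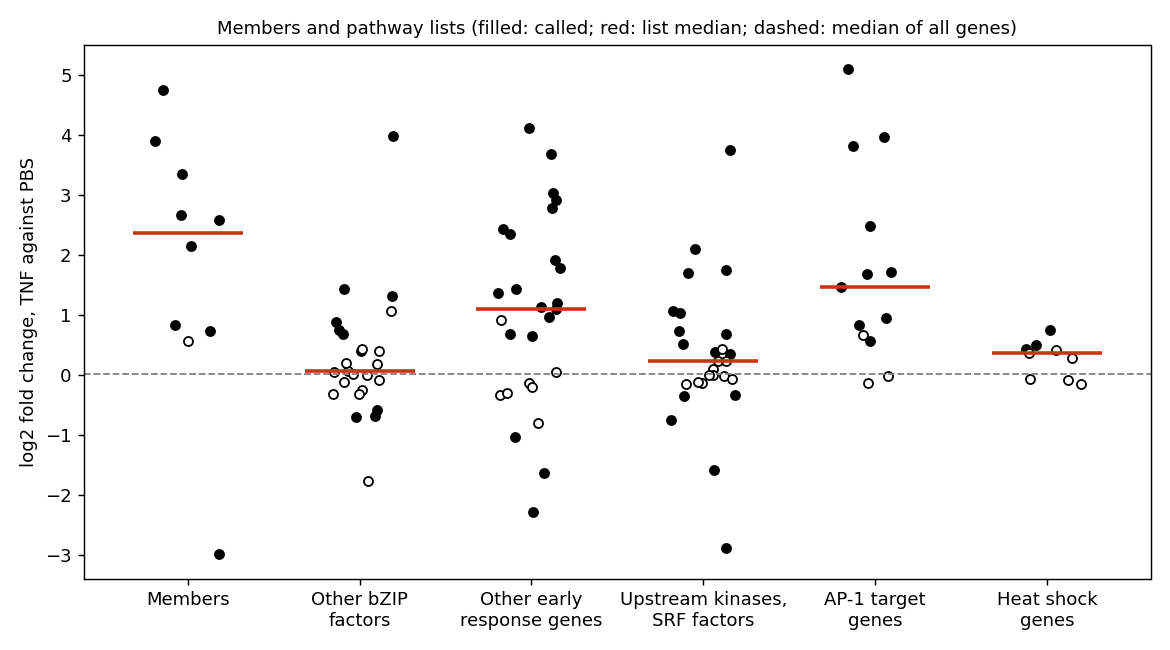
Log2 fold change of TNF against PBS (vertical axis) for the 10 members and 5 pathway lists, with filled points for called genes, a red line at each list's median and a dashed line at the median of all genes (0.03). Medians run from 0.07 for the other bZIP factors to 2.37 for the members.

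Markers of other cell types moved with TNF as well. Of the immune markers 3 of 14 passed the filter, and *Ms4a1* (2.94) and *Cd52* (1.69) rose, at levels of at most 3.35 normalized CPM. The summed level was 7.40 to 13.2 in PBS and 11.3 to 69.8 in TNF, highest in TNF replicate 4, and most of it was *Lyz2*, which was not called (adjusted p = 0.0805, edgeR). *Lyz2* was 6.24 to 11.7 in PBS, 9.44 to 12.2 in TNF replicates 1 to 3 and 64.3 in TNF replicate 4. *Ptprc*, the general leukocyte marker, was 0.112 to 0.394 in PBS, at most 0.0355 in TNF replicates 1 to 3 and 0.773 in TNF replicate 4, and *Itgam* and *Cd68* had at most 14 and 12 counts in any library. The T cell, macrophage and neutrophil markers *Cd3e*, *Cd3g*, *Cd4*, *Cd8a*, *Adgre1* and *S100a8* were at 0 counts in every library. Among stromal markers 1 of 8 was tested and rose (*Vim*), with *Col1a2* and *Col3a1* at 0 counts in every library, *Col1a1* at 0 counts in PBS and 0.0346 to 0.213 normalized CPM in TNF, *Pecam1* at most 0.0744 in PBS and 0.343 in TNF, and a summed level of 0.260 to 0.452 in PBS and 1.23 to 1.76 in TNF. The stem cell markers *Lgr5* (-1.21), *Ascl2* (-2.13), *Smoc2* (-0.56) and *Axin2* (-1.53) fell, and the summed stem level was 1893 to 2781 in PBS and 1708 to 2240.4 in TNF. *Olfm4* (-0.23), which made up most of that sum, and *Slc12a2* (-0.27) were not called. Goblet markers *Muc2* (1.27) and *Spdef* (0.41) rose while *Clca1* (-2.55) and *Fcgbp* (-1.53) fell, with sums of 3681 to 5938 and 6391 to 7626. *Tff3*, *Zg16* and *Agr2* were not called. The *Clca1* value rested on PBS replicate 1 (554 normalized CPM, against 41.1 to 44.0 in the other PBS libraries and 24.0 to 42.2 in TNF), and without it the log2 fold change was -0.60 (adjusted p = 0.0285, edgeR). The calls of *Clca1*, *Spdef*, *Gcg* and *Birc5* were each lost when 1 of several libraries was left out. Enteroendocrine *Chga* (1.95), *Chgb* (1.95) and *Gcg* (1.13) rose, with sums of 25.5 to 33.9 and 47.7 to 123. In edgeR *Sct* and *Cck* were not called, and *Neurod1* did not pass the filter. The highest sum was in TNF replicate 4, where *Sct* was 61.6 normalized CPM against 16.5 to 17.4 in the other TNF libraries. In edgeR 1 of 8 enterocyte markers fell (*Apoa4*, -3.94), 1 of 6 cycling markers fell (*Birc5*, -0.58), and the others of these lists were not called. DESeq2 called 2 enterocyte markers, and limma-voom and scaling by library size alone called 3 each. Of 4 tuft markers 0 were called (edgeR, 0 at an unadjusted p under 0.05 and 0 by DESeq2). The part of these markers in the members' values was not tested.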

How the data were processed

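Per the labels, the Aurum Total RNA Mini kit was used for RNA, and TruSeq Stranded mRNA was the library kit. The authors deposited a table of raw, unnormalized counts for 55414 Ensembl gene IDs in 4 PBS and 4 TNF libraries. The submitters' processing notes name FastQC 0.12, STAR 2.7.10a, DESeq2 and the mouse genome build mm39 (GRCm39). For its pooled analysis the study describes a STAR index built on GENCODE M30, which may not be the annotation of this table. The counter, the strand setting and the handling of reads that match several genes are not stated in the sources at hand, so counts of overlapping genes are uncertain (*Jund* with *Gm11175*, *Jun* with *Junos*, *Fosl1* with *Ccdc85b*, *Junb* with *Prdx2*). Symbols, positions and exon lengths came from GENCODE M39 (54749 IDs matched, 665 did not).

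TNF was compared with PBS by the quasi-likelihood test of edgeR 4.0.16 in R 4.3.3 with TMM factors, filterByExpr and no covariate, and p-values were adjusted over all 13368 tested genes by the Benjamini-Hochberg method. The F statistic gave the SE. Normalized CPM are counts scaled to the TMM-adjusted library size. P-values measure only the spread between these libraries. The members, lists and tests were chosen with earlier results of these data known. The genes named from each of the 5 lists were the 4 with the smallest p among those called at a mean of at least 1 normalized CPM. Some items that this rule or the lists include are not reported here. The procedure was tested on simulated counts drawn from the mean PBS profile. They held no deviant library and no shift in composition like that of TNF replicate 4, so the simulation does not cover such libraries. The lowest chi-square per degree of freedom between libraries of a group was 8.77, so no 2 were duplicates. Alternatives were RLE scaling, library size alone, TMM without Defa genes and *Lyz1*, a minimum of 1 count, a minimum of 1 CPM in 4 libraries, limma-voom (limma 3.58.1) with and without sample quality weights, DESeq2 1.42.0, a replicate block, a threshold of 0.01, and leaving out each library. Leaving out PBS replicate 4 and TNF replicate 4 together was added after seeing the data.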

Additional observations from a re-analysis of the deposited data

Results flagged for a closer look

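In each group of 4, the highest or lowest library was compared with its nearest neighbor, and a gap above Dixon's 95% critical value, as a part of the group's range, marked it as far from the others. Among 36 named genes and 72 groups, 13 values were marked, and chance marks about 1 in 20 groups. In PBS replicate 4 there were 8 of them, 6 as the highest library, and in TNF replicate 4 there were 2.

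Of the members, PBS replicate 4 was highest for *Fosb* (5.47 normalized CPM against 0.536 to 0.855), *Jun* (53.6 against 23.8 to 27.6) and *Egr1* (38.3 against 13.2 to 17.4). *Fos* was lowest in TNF replicate 2 (18.3 against 27.0 to 28.7).

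In the same library PBS replicate 4, *Mafk* was highest (25.9 against 18.3 to 19.5), as were *Nab1* (26.7 against 19.9 to 20.6) and *Nfkb2* (26.3 against 19.3 to 20.3), while *Hbegf* (0.181 against 0.375 to 0.409) and *Smim33* (17.4 against 25.5 to 27.2) were lowest. *Plxnb1* was highest in TNF replicate 4 (27.7 against 17.7 to 18.8) and *Nfkb2* lowest there (185.6 against 212 to 215). *Gem* was highest in TNF replicate 3 (12.6 against 5.43 to 6.25) and *Rps6ka5* in TNF replicate 1 (0.958 against 0.657 to 0.687).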

How the results depend on the processing

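No member changed direction under any alternative. Over the alternatives that gave an adjusted p, *Fosl2*, *Junb*, *Atf3*, *Egr1* and *Ier3* were called in 18 of 18, *Fosl1* in 17 of 17, *Jund* in 17 of 18, *Fosb* in 15 of 16, *Jun* in 14 of 18 and *Fos* in 3 of 18. Scaling by library size alone moved the median log2 fold change of all genes from 0.03 to -0.38, and *Jun* (0.35, adjusted p = 0.505) and *Jund* (0.41, adjusted p = 0.409) lost their calls there, as did *Creb1*, *Mafk*, *Plxnb1*, *Gm11175*, *Dnajb1*, *Dnaja1* and *Hsp90aa1*. Calls over all genes then numbered 3182 instead of 5747, other bZIP factors 4 instead of 10, other early response genes 13 instead of 20, upstream factors 7 instead of 16 and heat shock genes 0 instead of 3 (edgeR, 0 at an unadjusted p under 0.05, while DESeq2 called 4). With sample quality weights, where 57.7% of all genes were called, 16 other bZIP factors were called, and *Fos* was called (0.90, adjusted p = 0.00417), and without PBS replicate 4 and TNF replicate 4 there were 17. At an adjusted p under 0.01, which the tallies above leave out and 29.2% of all genes passed, 7 members were called, without *Fosb* and *Jun*, and 1 heat shock gene. Leaving out 1 library gave 8 to 10 called members, 4756 to 6922 genes, 8 to 13 other bZIP factors, 20 to 22 other early response genes, 11 to 16 upstream factors, 8 to 11 AP-1 targets and 1 to 4 heat shock genes. *Fosb* and *Fosl1* fell below the filter of 1 CPM, and DESeq2 gave *Fosb* no adjusted p. The cause of these changes was not tested.

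No pairing by replicate number was seen in the deviations from the group means. Their correlations were 0.0465, 0.0760, -0.196 and -0.164, and 1 of 4 PBS libraries matched its own number best. With 4 libraries per group these values cannot decide whether the numbers pair the libraries. *Malat1* and *Neat1* were highest in both libraries numbered 4. With the replicate block 9 members and 5087 genes were called. Depth limits *Fosl1* in PBS (1 to 6 counts) and *Fosb* in TNF (3 to 8 counts).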
